A study of Mus musculus with 4 samples.

Results

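Foxd1-positive mesenchyme was the set of cells of the Tbx1 lineage that carried transcripts of Foxd1, a forkhead transcription factor, and few or no transcripts of the genes that define the neighbouring lineages. A barcode was a member where its raw counts held at least 2 unique molecular identifiers (UMIs, each standing for 1 captured transcript molecule) of Foxd1, at most 1 of Tcf15, at most 2 of Arg1, at most 1 of Sox2, at most 2 of Epcam and at most 2 of Cdh5 and Pecam1 together. The members were therefore chosen on measured values, and their Foxd1 level and low counts of these other genes are no findings. The rule took 2867 of the 14243 barcodes. At E8.5 these were 105 of 1434 control (Ctrl) and 133 of 1090 conditional knockout (cKO) barcodes, and at E9.5 they were 1155 of 5453 for Ctrl and 1474 of 6266 for cKO.

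Mouse embryos of a Swiss Webster background were profiled by single-cell RNA-seq in droplets, with chemistry that counts transcripts from their 3′ ends. Ctrl embryos were Tbx1Cre/+;Rosa26-GFPflox/+ and cKO embryos were Tbx1Cre/flox;Rosa26-GFPflox/+, at embryonic day (E) 8.5 and E9.5. Tissue was the upper part of the body at E8.5 and the pharyngeal apparatus with the heart at E9.5. The study's summary of samples lists the back as well for both E9.5 groups. Tissue was pooled from several embryos, and living GFP-positive cells were sorted before capture. The Cre was placed in the Tbx1 locus and takes that allele out of use, so that Ctrl cells also had a single working copy of Tbx1, and GFP marked cells with past as well as present Cre. There was 1 library per group and no replicate, so that no test between groups exists, and genotype, embryo pool and library cannot be told apart. Values for all 4 libraries are given in the order Ctrl E8.5, cKO E8.5, Ctrl E9.5, cKO E9.5. Intervals are 95% intervals for counting error only.

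FOXD1 is known from the stromal progenitors of the kidney, from the retina and from the mesenchyme of the face. Mesenchyme of the head and pharynx lies beneath epithelia that secrete Sonic hedgehog, and cells that receive this signal transcribe Ptch1 and Gli1, which encode its receptor and an effector. Forkhead factors of the Foxf and Foxl groups are known targets of the same signal in mesenchyme next to the gut. Most of the other marker genes given for these cells make matrix. Lum encodes lumican, a small leucine-rich proteoglycan that spaces collagen fibrils, Col9a1 a chain of the fibril-associated collagen IX, and Col23a1 a transmembrane collagen. Nbl1 encodes a secreted BMP antagonist. In the NCBIM37 mouse assembly, which is an older build than the mm10 of the deposited counts, Foxd1 lies at chr13:98354245-98356705, Lum at chr10:97565501-97572703, Nbl1 at chr4:139082291-139093126, Col9a1 at chr1:24177589-24252738 and Col23a1 at chr11:51289679-51583925.

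Members held a median of 17485, 22446, 15697 and 16086.5 UMIs per cell in the 4 libraries, against library medians of 17319.5, 23984, 16666 and 15910.5. Summed over members, the 4 groups held 1929659, 3033710, 19339294 and 25519521 UMIs, so that values at E9.5 rest on many more molecules than those at E8.5. Levels are UMIs per 1000000 UMIs (UPM) of the 27514 gene identifiers that all libraries list, since cKO E9.5 was counted with another gene table. Between libraries, 2 to 55 barcodes were the same, and 4 of these were members on both sides. Doublets were not called or removed, and 3, 1, 24 and 53 members held over 2 times their library's median UMIs. Xist was at 1094, 64.9, 471 and 1015 UPM in members, genes of the Y chromosome summed to 27.6, 89.0, 52.3 and 17.0, and ribosomal protein genes to 299275, 306176, 243446 and 305093. Xist and the Y genes thus moved with genotype in opposite directions at the 2 stages, the ribosomal sum was higher in cKO at E9.5, and their part in the results was not tested.

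Transcripts of the targeted gene Tbx1 (NCBIM37 chr16:18580979-18590671) were seen in members of all 4 libraries, at 119.9, 129.4, 129.6 and 167.0 UPM. The log2 ratio of cKO to Ctrl was 0.11 (-0.13 to 0.35) at E8.5 and 0.37 (0.29 to 0.44) at E9.5, where it was 0.36 in all other barcodes. Tbx1 was thus not lower in cKO members at either stage. The deleted part of the gene is not given in the sources used here, and 3′ tags do not check a deletion outside them. Ctrl and cKO are therefore used as the libraries are labelled, and each direction between them rests on the labels.

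At E8.5 members made up 7.32% (6.08 to 8.79) of Ctrl and 12.2% (10.4 to 14.3) of cKO barcodes, a difference of 4.88 percentage points (2.55 to 7.30). With a Foxd1 minimum of 1 UMI this difference was 1.59 points. At E9.5 the share was 21.2% (20.1 to 22.3) in Ctrl and 23.5% (22.5 to 24.6) in cKO, a difference of 2.34 points (0.830 to 3.85). Both libraries of E9.5 held a larger share than both of E8.5, and the tissue taken also differed between the stages. With each cell thinned to 10000 UMIs before the rule was applied, which left out 135, 84, 543 and 714 shallower cells, the shares were 5.004, 8.95, 15.1 and 17.4%, and cKO was higher by 3.94 points (1.86 to 6.14) at E8.5 and 2.29 points (0.876 to 3.70) at E9.5. Among the 873, 544, 3765 and 4734 barcodes that met every clause other than that on Foxd1, the shares were 12.03, 24.4, 30.7 and 31.1%. The genotypes then differed by 12.4 points (8.28 to 16.7) at E8.5 and by 0.459 points at E9.5, with an interval from -1.52 to 2.43 that includes 0. The E9.5 difference in the share of all barcodes was therefore not seen among barcodes that met the other clauses. These barcodes are not mesenchyme alone, since no clause limits heart or blood genes. At E9.5 those with no Foxd1 UMI held summed cardiomyocyte genes at 1076 (Ctrl) and 577 UPM (cKO), against 66.3 and 53.5 in members. The share within mesenchyme alone was not tested.

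**Figure D1:**
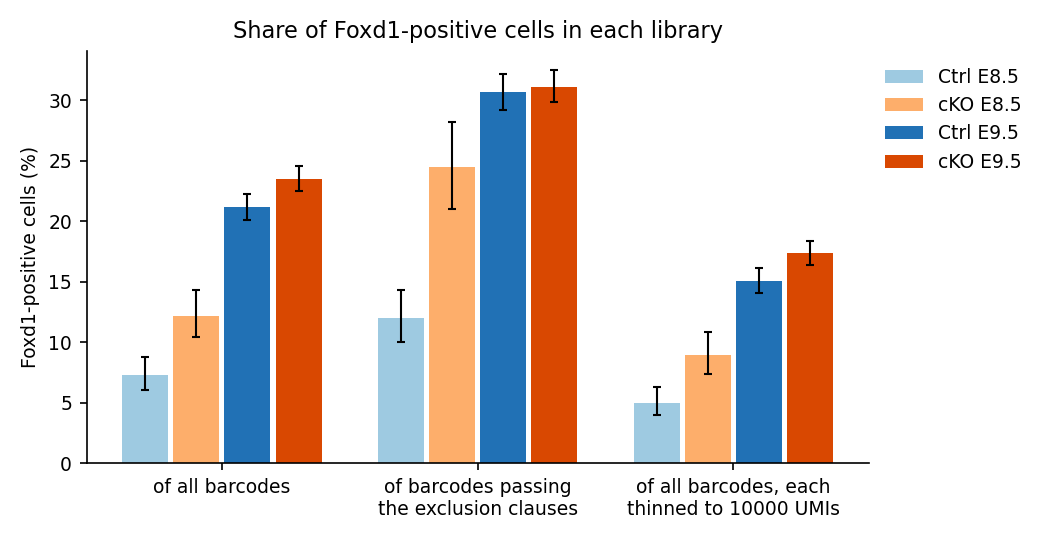
Share of barcodes in percent that were Foxd1-positive mesenchyme (y axis) in each of the 4 libraries (x axis), of all barcodes, of barcodes that met the other clauses, and after thinning to 10000 UMIs, with Wilson 95% intervals as bars. The cKO E8.5 bars stand above those of Ctrl E8.5 on all 3 measures, while the E9.5 bars of the second measure are 30.7 and 31.1%.

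The clauses removed many Foxd1-transcribing cells, above all at E8.5. Of barcodes with at least 2 Foxd1 UMIs, they took out 62 of 167, 163 of 296, 188 of 1343 and 339 of 1813, mostly through Tcf15, a factor of somitic and paraxial mesoderm, with 51, 148, 107 and 193 barcodes, and Arg1, which encodes arginase 1, with 31, 105, 72 and 189. Among barcodes with at least 2 Tcf15 UMIs, 14.5% (51 of 351) in Ctrl E8.5 and 46.1% (148 of 321) in cKO E8.5 also held at least 2 of Foxd1, a difference of 31.6 points (24.8 to 38.0). With Foxd1 counted after thinning, and Tcf15 still counted without it, the shares were 5.57 and 21.3%. At E9.5 the same share was 55.7% (107 of 192) in Ctrl and 55.9% (193 of 345) in cKO. Foxd1 transcripts in Tcf15-positive barcodes were thus more frequent in the cKO library than in the Ctrl library at E8.5, and alike in share at E9.5.

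Free RNA in droplets could give Foxd1 counts to cells that do not make it. Among barcodes with over 2 UMIs of Cdh5 and Pecam1, adhesion molecules of endothelium, at least 2 Foxd1 UMIs were held by 0 of 21 in Ctrl E8.5, which allows a share of up to 14.3%, and by 0 of 13 in cKO E8.5, which allows up to 23.1%. At E9.5 they were held by 7 of 317 (2.21%) in Ctrl and 2 of 69 (2.90%) in cKO, whose median depths of 20589 and 16350 UMIs were near or above those of members. Among barcodes with over 2 UMIs of Epcam, an epithelial adhesion molecule, the E9.5 shares were 3.29% (24 of 730) and 5.47% (11 of 201). Among barcodes with over 1 UMI of Sox2, a factor of neural and otic cells, the shares were 3.45% (1 of 29), 15.2% (5 of 33, 6.65 to 30.9), 2.84% (11 of 388) and 7.14% (8 of 112) in the 4 libraries, at median depths of 17962, 28215, 19612 and 19781.5 UMIs, and 0, 3.03, 0.798 and 0.962% after thinning to 10000 UMIs. The member shares of E9.5 lay well above the endothelial, epithelial and Sox2 levels. At E8.5 the endothelial barcodes are too few to set a background, as are those with over 2 Epcam UMIs (0 of 14 and 0 of 12). In cKO E8.5 the Sox2 share was above the share of members among all barcodes, which the clauses lower. With no clauses, 296 of 1090 barcodes there held at least 2 Foxd1 UMIs. After thinning, the Sox2 share of 3.03% (0.537 to 15.3) stood beside a member share of 8.95%. That interval includes the member share, so a background below it was not shown there. Members at the threshold were common: 62, 55, 438 and 576 held exactly 2 Foxd1 UMIs, 37, 51, 467 and 576 held 3 or 4, and 6, 27, 250 and 322 held 5 or more, while 155, 82, 678 and 848 barcodes that met the other clauses held 1 and lay just outside.

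To describe what members transcribed beside Foxd1, they were set against the 613, 329, 1932 and 2412 barcodes that met the same clauses and held no Foxd1 UMI (Foxd1-zero cells). A gene was called higher or lower where its level differed at least 2-fold and the interval of the ratio did not include 1, among genes with at least 50 UMIs over both groups. At E9.5, 262 of 11710 genes (2.24%) were called higher and 751 (6.41%) lower in Ctrl members, and 183 of 11822 (1.55%) higher and 557 (4.71%) lower in cKO members. Both sets of cells come from 1 library each and were split by the same count table, so these ratios are a description with no test. The median log2 ratio over all genes was 0.02 in Ctrl and 0.03 in cKO.

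The marker genes separated members from Foxd1-zero cells. Lum was at 278, 245, 550 and 253 UPM in members of the 4 libraries, against 56.8, 23.5, 70.1 and 36.8 in Foxd1-zero cells, a log2 ratio of 2.97 (2.90 to 3.04) in Ctrl E9.5 and of 2.78 in cKO E9.5. Its members stood above the Foxd1-zero cells in all 4 libraries. After thinning, Lum was seen in 67.7, 57.7, 79.6 and 65.4% of members (77.1, 72.2, 84.9 and 71.9% without thinning), in 23.2, 12.6, 18.9 and 13.8% of Foxd1-zero cells and in 9.52, 0, 5.98 and 0% of endothelial barcodes. Nbl1 was at 75.2 UPM in Ctrl E9.5 members against 12.6 in Foxd1-zero cells, and at 44.3 against 12.9 in cKO E9.5. Col9a1 was at 225 against 80.2 and at 127 against 55.0, and Col23a1 at 94.4 against 27.1 and at 48.2 against 17.4. All 4 of these marker genes were called higher in both E9.5 libraries, with a median log2 ratio of 2.19 in Ctrl and 1.62 in cKO. The markers came with the name of these cells and were chosen with earlier results of the same libraries known, so their levels are a description and no independent check of the name.

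Several forkhead genes accompanied Foxd1. Foxc2, needed in paraxial and pharyngeal mesenchyme, was at 88.1, 91.7, 138 and 101 UPM in members of the 4 libraries in the same order, against 37.0, 38.0, 28.8 and 19.3 in Foxd1-zero cells. Foxf2, which acts in mesenchyme of the palate and gut, was at 6.26, 10.9, 33.8 and 21.1 UPM against 1.22, 1.37, 5.09 and 3.78. Members stood above Foxd1-zero cells in each library for both genes. Foxl1 was at 18.4 UPM in Ctrl E9.5 members against 2.26, with a log2 ratio of 3.03 (2.66 to 3.41), and Foxd2, a relative of Foxd1, at 36.4 against 10.3 (1.82, 1.63 to 2.01). Foxf1, a paralogue of Foxf2, was at 8.69 against 3.90 UPM in Ctrl E9.5 but at 2.59 against 2.86 in cKO E9.5. Its Ctrl ratio of 1.16 (0.81 to 1.504) was 0.70 after thinning and -0.07 without the exclusion clauses.

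Other transcription factors followed. Tbx18, a T-box factor of mesenchymal progenitors, was at 16.2, 21.5, 92.2 and 52.0 UPM in members, against 7.43, 6.71, 17.0 and 9.28 in Foxd1-zero cells. Pax9, a factor of sclerotome, pharynx and tooth, was at 39.3 against 10.1 UPM in Ctrl E9.5, and Sox9, the chief factor of cartilage fate, at 140 against 53.7. Zic1 was at 30.8 against 10.0 UPM and Foxp2 at 53.7 against 21.9. Lower in Ctrl E9.5 members were Msx1 at 18.2 against 42.0 UPM, Barx1 at 0.156 against 4.02 and Alx1 at 1.14 against 5.37, homeobox genes of the facial processes. The Msx1 call was lost with a Foxd1 minimum of 1 (-0.68) and without the clauses (-0.91), and the Pax9 call without the clauses (0.67). Of the head mesenchyme transcription factors, 10 were called higher and 12 lower of 50 tested in Ctrl E9.5, with a median of 0.20, and 8 higher and 12 lower of 52 in cKO E9.5, with a median of 0.07. The general mesenchyme list (Prrx1, Prrx2, Twist1, Twist2, Pdgfra, Col1a2, Col3a1 and Snai2) gave 3 higher and none lower of 8 in Ctrl E9.5 and 1 higher in cKO E9.5.

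Matrix genes formed the other large group. Col3a1, a fibrillar collagen of soft tissue, was at 43.8, 82.8, 405 and 482 UPM in members of the 4 libraries, while Foxd1-zero cells held 119 UPM in Ctrl E9.5 and 184 UPM in cKO E9.5. Vtn, which encodes the adhesive protein vitronectin, was at 50.5 against 3.46 UPM in Ctrl E9.5 and at 28.9 against 4.18 in cKO E9.5, the first of these a log2 ratio of 3.87 (3.58 to 4.17). Sparcl1, a secreted relative of osteonectin, was at 160 against 27.5 UPM, and Dpt, which encodes dermatopontin, had a log2 ratio of 3.84 (2.84 to 5.02) at 4.06 UPM. These secreted products were among the highest ratios of the comparison. Beside them stood genes with other roles: Cbr3, a carbonyl reductase, at 16.1 against 1.85 UPM, Slc1a3, a glutamate transporter, at 45.7 against 8.51, Pid1 at 26.3 against 4.24 and Tspan17, a tetraspanin, at 13.5 against 2.23. Fibrillar and fibril-associated collagens gave 6 higher and none lower of 13 in Ctrl E9.5, with a median of 0.99, and 3 higher in cKO E9.5. Basement membrane and transmembrane collagens gave 4 higher and 2 lower of 10 in Ctrl E9.5 and 3 and 1 of 11 in cKO E9.5, and other matrix proteins and proteoglycans gave 8 and 3 of 30 and 6 and 2 of 30.

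Ptch1 and Gli1, target genes of hedgehog signalling, were higher in members than in Foxd1-zero cells. Ptch1, the receptor that the pathway itself induces, was at 43.3, 66.9, 65.7 and 75.4 UPM in members and at 13.1, 17.5, 21.7 and 21.5 in Foxd1-zero cells. The members stood above in all 4 libraries, and after thinning Ptch1 was seen in 29.3, 35.4, 39.5 and 43.9% of members and 9.57, 14.1, 17.4 and 17.3% of Foxd1-zero cells. Gli1, an effector induced by the pathway, was at 15.2 against 6.06 UPM in Ctrl E9.5 and at 11.4 against 3.48 in cKO E9.5. Of the 10 hedgehog pathway genes tested, 3 were called higher in Ctrl E9.5, the same 3 and Hhip, which encodes a hedgehog-binding inhibitor, in cKO E9.5, and none lower. The medians of the whole list were 0.10 and 0.17, since the genes of ligand processing and transduction lay near 0.

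Target genes of FGF signalling went the other way. Fgf8, a ligand of the pharynx and heart field, was at 2.13 UPM in Ctrl E9.5 members against 17.1 in Foxd1-zero cells. The ETS factors Etv4, at 1.61 against 14.7 UPM, and Etv5, at 3.59 against 21.2, are induced by FGF, as are the feedback inhibitors Spry2, at 9.15 against 26.5, Spry4, at 1.04 against 3.77, and Dusp6, at 31.8 against 78.6. All of these were called lower, with log2 ratios from -3.19 for Etv4 to -1.30 for Dusp6. Of the FGF pathway, 9 of 14 were called lower in Ctrl E9.5 and 6 of 14 in cKO E9.5, and none higher, with medians of -1.42 and -0.82.

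The other signalling lists were mixed. In the WNT list 2 were called higher and 8 lower of 24 in Ctrl E9.5, and 1 and 4 of 23 in cKO E9.5. Its higher genes in Ctrl E9.5 were Rspo3, a secreted enhancer of WNT signalling, at 22.1 against 8.01 UPM, and Axin2, a common WNT target, at 34.1 against 12.8. The BMP list gave 2 higher and 6 lower of 21 in Ctrl E9.5, among the higher Fst, the secreted antagonist follistatin, at 294 against 107 UPM, and 2 and 6 of 20 in cKO E9.5. Retinoic acid genes gave 1 higher and 4 lower of 15 in Ctrl E9.5 and 0 and 2 in cKO E9.5. PDGF, endothelin, semaphorin and chemokine genes gave 5 higher and 9 lower of 30 in Ctrl E9.5, and 1 and 7 of 29 in cKO E9.5, with the endothelin receptor Ednra at 47.3 against 22.3 UPM and the ephrin receptor Epha7 at 33.2 against 9.93 in Ctrl E9.5. The S phase list (18 genes) and the G2 and M phase list (20 genes) gave no call in either library, and glycolysis and hypoxia genes gave 3 lower of 24 and 2 lower of 23.

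Members held little of the other lineages at E9.5. The branchiomeric muscle gene Tcf21 was at 2.24 UPM in Ctrl E9.5 members against 48.8 in Foxd1-zero cells, and Isl1, a heart field factor, was at 7.02 against 87.4. Called lower, of those tested, were 5 of 5 branchiomeric muscle genes, 7 of 7 heart field genes, 6 of 6 cardiomyocyte genes, 5 of 5 endothelial genes, 3 of 3 epithelial genes, 4 of 4 blood genes, 4 of 6 neural crest genes and 3 of 4 neural genes in Ctrl E9.5. In cKO E9.5 the counts were 5 of 5, 6 of 7, 6 of 6, 4 of 5, 3 of 3, 2 of 2, 2 of 4 and 4 of 4. The somite list split, with Foxc2 and Pax9 higher and Uncx, a factor of the caudal somite, lower of 5 tested in both libraries. Hox genes of paralogue groups 1 to 6, which mark more caudal levels, were lower for 5 of 7 in both, for example Hoxb4 at 0.156 against 3.24 UPM.

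Messages of other lineages were also counted in members. Summed over their lists, cardiomyocyte genes gave 84.5, 44.4, 66.3 and 53.5 UPM in members (413, 493, 531 and 331 in all other barcodes), endothelial genes 84.5, 117, 13.8 and 18.4 (186, 182, 232 and 66.5), epithelial genes 20.3, 11.3, 15.2 and 14.2 (76.2, 67.5, 354 and 103), blood genes 0.521, 0, 1.92 and 2.16 (0.643, 0.264, 85.3 and 5.79), and neural crest genes 31.3, 35.1, 35.9 and 35.7 (33.8, 37.2, 54.4 and 35.7). The neural crest sum of members was thus near that of other barcodes except in Ctrl E9.5. The endothelial sum of members was higher at E8.5 than at E9.5. The endothelial and epithelial lists hold Cdh5, Pecam1 and Epcam, which the rule limits in members. Myl7, a myosin light chain of the heart, was seen in 36.4, 11.5, 7.66 and 9.65% of thinned members. In thinned endothelial barcodes it was seen in 42.9, 16.7, 7.97 and 11.3%, so its share in members lay at or below theirs. Whether its counts in members are background was not tested.

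Among barcodes that met the other clauses, levels of several genes followed the number of Foxd1 UMIs per cell. With cells thinned to 10000 UMIs, Lum in Ctrl E9.5 was at 74.9 UPM in cells with no Foxd1 UMI, 304 with 1, 455 with 2, 598 with 3 or 4 and 783 with 5 or more, and in cKO E9.5 at 36.8, 116, 229, 279 and 348. The cells just outside the threshold thus lay between Foxd1-zero cells and members. Foxc2 was at 31.1, 78.6, 107, 142 and 183 UPM in Ctrl E9.5 and at 20.1, 51.5, 81.4, 117 and 125 in cKO E9.5, and Foxf2 at 5.46, 13.0, 24.5, 31.7 and 61.0 and at 3.69, 9.62, 16.6, 23.6 and 34.0. Prrx1, a homeobox gene of most head and limb mesenchyme, did not follow, at 91.3, 114, 107, 85.4 and 69.3 UPM in Ctrl E9.5 and 163, 177, 156, 139 and 121 in cKO E9.5. Nor did 2 of the markers above the threshold in cKO E9.5. With 2, 3 or 4, and 5 or more Foxd1 UMIs, Nbl1 was at 48.6, 52.0 and 38.8 UPM there. Col9a1 was at 127, 145 and 129. In Ctrl E9.5 the values were 71.3, 72.7 and 87.0 for Nbl1 and 229, 221 and 269 for Col9a1. The steps are a description over cells of the same library.

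**Figure D2:**
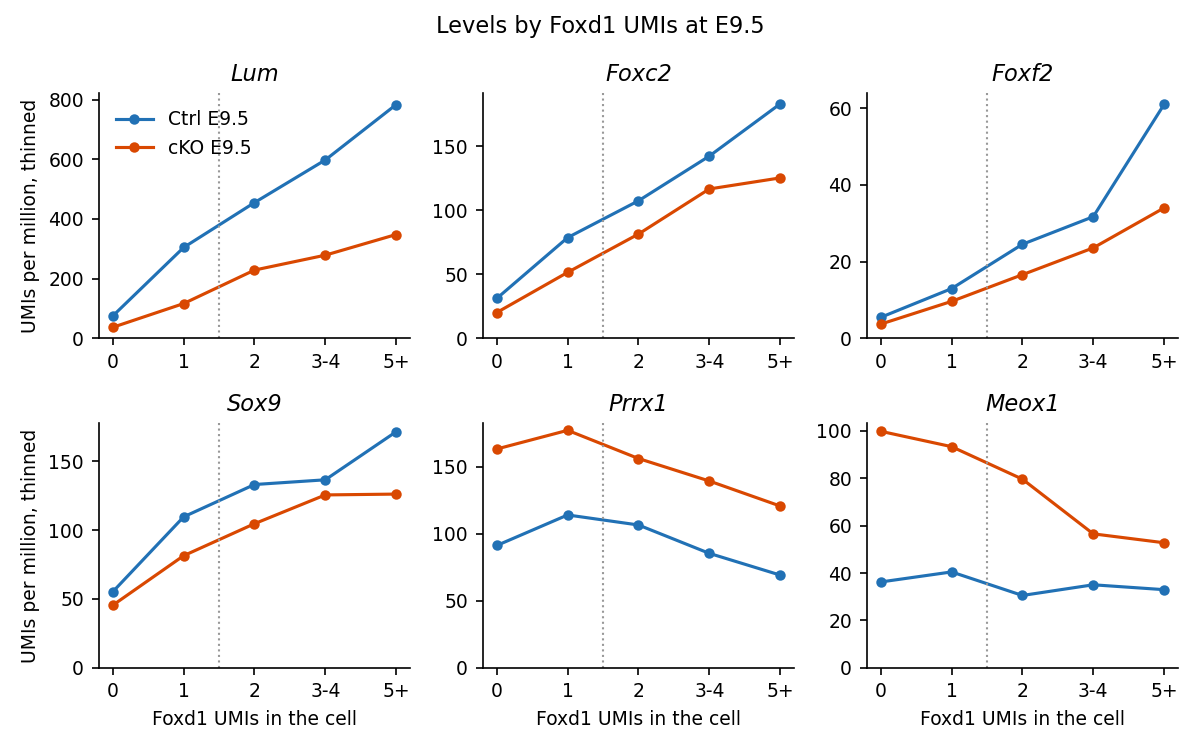
Level of 6 genes in thinned UPM (y axis) by the Foxd1 UMIs of the cell (x axis: 0, 1, 2, 3 to 4, 5 or more) at E9.5, 1 line per library, with a dotted line at the threshold between 1 and 2. Lum, Foxc2 and Foxf2 are higher at each step in both libraries, while Prrx1 and Meox1 are not.

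Contractile genes were among those in which members of E9.5 differed most among themselves. Of 6966 genes ranked by the ratio of variance to mean over thinned Ctrl E9.5 members (Fano factor, median 1.03), the highest values included Myl7 with 48.8, the smooth muscle genes Acta2 with 31.3, Tagln with 19.4 and Myl9 with 10.7, and Lum with 5.20, beside Actb, Actc1, Malat1, Tmsb4x, Hspa8, Lgals1, Tpm1, Ube2c and Arl6ip1. At E8.5 the highest values were those of Actb, Ptcra and Malat1 in Ctrl and of Actb, Ptcra and Atg2a in cKO, with Acta2 at ranks 12 and 13. The Myl7 value rests on few cells: only 2 members in each E9.5 library held 5 or more thinned Myl7 UMIs, and their median depths were 31816 UMIs in Ctrl and 25917 in cKO, above the library medians. Cells with 5 or more thinned Acta2 UMIs, a limit set after the values were seen, made up 3 of 99, 5 of 130, 34 of 1071 (3.17%) and 55 of 1357 (4.05%) thinned members. In Ctrl E9.5 they held Foxl1 at 68.0 UPM against 18.1 in the other members, Foxf2 at 109 against 33.3, Tbx18 at 192 against 89.3, Lum at 857 against 577 and Meox1 at 0 against 34.0. In cKO E9.5 the same genes were at 36.4 against 11.4, 78.3 against 21.1, 115 against 51.4, 604 against 262 and 1.82 against 66.9 UPM. These cells also held more of the cardiomyocyte genes. Myl7 was at 290 against 9.02 UPM in Ctrl E9.5 and 222 against 9.61 in cKO E9.5, and Actc1 at 541 against 11.35 and 351 against 12.5. Members with 5 or more thinned Myl7 UMIs held Acta2 at 1910 UPM in Ctrl and 1853 in cKO. A small Acta2-high fraction with more Foxf2, Foxl1, Myl7 and Actc1 and less Meox1 was therefore present at E9.5 in both genotypes.

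The nearest other sets of mesenchyme at E9.5 were cells with at least 2 UMIs of Tcf15 (somitic, 67 in Ctrl and 123 in cKO), cells chosen on Foxf2 and Foxl1 (75 and 59) and cells with Crym (489 and 659). Members shared their markers other than Foxd1 with the Foxf2 and Foxl1 set in that none of the 4 was called different. Lum was lower in members than in that set by a log2 ratio of -0.21 in Ctrl and -0.28 in cKO. What set members apart from it were Zic1, with log2 ratios of 2.83 and 2.73, and Prrx1, with 1.69 and 0.91. Against somitic cells, members had less Meox1 (-2.29 and -1.61), a somite homeobox gene, and more Foxf2 (2.44 and 2.77), while Lum had ratios of 0.73 and 1.72. Against Crym cells, the markers were called higher for 4 of 4 in Ctrl and 2 of 4 in cKO, with Foxf2 at 3.20 and 2.50. Over all genes, 2.71% were called higher and 1.19% lower against Crym cells in Ctrl, and 1.71% and 0.982% in cKO. Against somitic cells these shares were 2.36% and 0.672% in Ctrl and 2.28% and 1.02% in cKO. Against the Foxf2 and Foxl1 set they were 0.975% and 1.54% in Ctrl and 0.892% and 1.6% in cKO. Ptch1 stood at 2.31 and 1.83 against Crym cells, at 0.33 and 1.22 against somitic cells and at -0.41 and -0.31 against the Foxf2 and Foxl1 set. Of the 10 hedgehog genes, none was called against somitic cells in Ctrl and 4 were higher and 3 lower in cKO, while against the Foxf2 and Foxl1 set Hhip alone was lower in Ctrl (-1.56) and Gli3 and Gas1 were higher in cKO. The rules of these sets used Tcf15, Foxf2, Foxl1 and Crym. The values of each of these genes in the set chosen on it are therefore set by the choice of cells.

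The comparison of cKO with Ctrl at E9.5 set the library labelled as lacking Tbx1 beside its control. Of the markers Lum alone was called lower in cKO, at 550 UPM in Ctrl and 253 in cKO, a call that was lost with TMM scaling and with centring. Nbl1 was at 75.2 and 44.3, Col9a1 at 225 and 127, and Col23a1 at 94.4 and 48.2, none of them called. The secreted antagonists Fst and Nog were lower, with Fst at 294 and 103 UPM and Nog at 4.37 and 0.589, and the forkhead gene Foxf1 was at 8.69 and 2.59. Higher in cKO were Meox1 at 30.8 and 62.2 UPM, Dkk1 at 4.89 and 11.9 and Aldh1a3 at 0.884 and 12.7. Over all genes, 269 of 11179 (2.41%) were called higher and 405 (3.62%) lower. Much of this was not particular to the mesenchyme: 190 of the 269 and 215 of the 405 were called in the same direction in all other barcodes of the same libraries. The median log2 ratio over all genes was -0.22 (-0.26 in all other barcodes), relative to which the ratios below are to be read. With TMM scaling the split was 366 higher and 215 lower, and with ratios centred on their median 389 and 204.

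Some of the largest ratios belonged to genes whose counts differed in every kind of cell. Fbxl7 was at 0.156 and 46.7 UPM, Timm8a1 at 4.06 and 198, Fdx1l at 87.8 and 0.0392 and the growth factor gene Igf2 at 248 and 7.73. Their log2 ratios of 8.23 (6.68 to 10.51), 5.61, -11.13 (-16.43 to -8.65) and -5.002 in members stood beside 7.91, 5.20, -9.35 and -4.83 in all other barcodes. The cKO E9.5 library was counted with another gene table, and members there held 0.129% of UMIs in identifiers outside the shared set against 0.421 to 0.594% elsewhere. The part of the gene table in these ratios was not tested, and each gene below is given with its ratio in other cells.

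The 4 markers had log2 ratios of -1.12 (-1.17 to -1.08) for Lum, -0.97 (-1.07 to -0.86) for Col23a1, -0.82 (-0.89 to -0.76) for Col9a1 and -0.76 (-0.88 to -0.65) for Nbl1. The call for Lum did not hold with TMM scaling (-0.93) or centring (-0.90). In Foxd1-zero cells of the same libraries the ratios were -0.93, -0.64, -0.55 and 0.04. The difference between members and Foxd1-zero cells was -0.80 (-1.03 to -0.58) for Nbl1 and -0.19 (-0.30 to -0.08) for Lum, so that lower Lum was largely shared by Foxd1-zero cells and lower Nbl1 was not. The list had 1 call of 4 and a median of -0.90 (-0.46 in all other barcodes). Vtn had the same pattern as Nbl1, with -0.80 (-0.94 to -0.66) in members and 0.27 in Foxd1-zero cells.

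Among the other matrix genes, Dcn, which encodes the proteoglycan decorin, was at 13.4 UPM in Ctrl and 4.55 in cKO (-1.56, and -1.19 in Foxd1-zero cells), Col9a2 at 19.3 and 6.47 (-1.58, and -1.79 in all other barcodes) and Col2a1, the main cartilage collagen, at 154 and 98.9 (-0.63). Dpt had a ratio of -1.41 (-2.0002 to -0.83). Postn, which encodes periostin, was higher, at 2.96 and 7.26 UPM (1.29, 0.86 to 1.75). The fibrillar collagen genes Col1a2 (0.51) and Col3a1 (0.25) had positive ratios, and neither they nor Col2a1 were called. Of 13 fibrillar and fibril-associated collagens 2 were called lower, of 11 basement membrane and transmembrane collagens none, and of 26 matrix genes 1 higher and 2 lower, the last with a median of -0.32 (-0.04 in all other barcodes).

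Of 47 head mesenchyme transcription factors 2 were called higher and 3 lower, with a median of 0.02. Foxf1 had a log2 ratio of -1.75 (-2.18 to -1.33), from 167 UMIs in 114 Ctrl cells and 66 in 61 cKO cells, and -0.45 in Foxd1-zero cells. Its paralogue Foxf2 was at -0.68, Foxl1 at -0.72, Foxc2 at -0.45 and Foxd2 at 0.02, none of them called. Tbx18 was at -0.83 in members and -0.87 in Foxd1-zero cells. Osr1 (-1.08) and Irx5 (-1.07) were called lower, but neither call held with TMM scaling, and Osr1 was at 0.03 without the exclusion clauses. Prrx1 was at 0.64 and Twist1 at 0.05, against 1.19 and 0.55 in all other barcodes.

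The somite genes Meox1 and Meox2 were called higher, 2 of 5 in their list. Meox1 had a log2 ratio of 1.01 (0.88 to 1.15) in members, 1.47 in Foxd1-zero cells and 1.76 in all other barcodes, so that its ratio was smaller in members than in either. After thinning it was seen in 16.9% of Ctrl and 27.2% of cKO members, in 18.5 and 33.9% of Foxd1-zero cells, and in 1.33 and 6.45% of endothelial barcodes. Its call was lost by a small margin with thinned cells (0.98), with at least 3 Foxd1 UMIs (0.82) or without the clauses (0.96). Meox2 was at 1.72 and 4.51 UPM, with a ratio of 1.39 (0.82 to 1.999), a call lost with thinned cells (0.93).

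In the BMP list 3 of 21 were called lower and none higher, with a median of -0.39 (-0.23 in all other barcodes). Nog, which encodes the BMP antagonist noggin, had a log2 ratio of -2.89 (-3.79 to -2.09), from 84 UMIs in 69 Ctrl cells to 15 UMIs in 15 cKO cells. In Foxd1-zero cells it was -0.86, a difference of -2.04 (-3.03 to -1.12). Fst had -1.51 (-1.58 to -1.45) in members and -0.90 in Foxd1-zero cells, and Chrdl1, which encodes a chordin-like antagonist, -2.84 in members and -2.62 in all other barcodes. The 3 calls were thus all secreted antagonists, and Chrdl1 was as low in other cells.

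In the WNT list Sfrp1, a secreted inhibitor of WNT signalling, was at 356 and 155 UPM (-1.20, -1.26 to -1.14, and -0.80 in all other barcodes), and Notum, an enzyme that inactivates WNT ligands, at -1.15. Dkk1, an inhibitor of the WNT co-receptor, was higher by 1.29 (0.95 to 1.64), against 0.30 in Foxd1-zero cells. These were 1 higher and 2 lower of 20. Rspo3 was at 22.1 and 42.4 UPM (0.94), beside 1.01 in all other barcodes. With centring Sfrp1 (-0.98) and Notum (-0.94) were no longer called. In the retinoic acid list, Aldh1a3, which makes retinoic acid, was at 3.85 (3.14 to 4.64) and Cyp26c1, which degrades it, at -1.77, and both stood near the ratios of all other barcodes, 3.00 and -2.11.

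No hedgehog gene of 10 was called, with Ptch1 at 0.20 (0.10 to 0.30), Gli1 at -0.42 and Hhip at 0.12, and the list's median was -0.18. None of 13 FGF genes was called either. PDGF, endothelin, semaphorin and chemokine genes gave 1 higher and 2 lower of 26, among the lower Epha4, an ephrin receptor, at 41.5 and 19.1 UPM (-1.12, and -0.31 in Foxd1-zero cells), a call lost with TMM scaling (-0.93). S phase genes were lower, 3 of 18 by call (Mcm2, Rrm1 and Cdc45) with a median of -0.66, and no more so than in all other barcodes (-0.62). With TMM scaling none of the 3 was called. G2 and M phase genes gave no call, and glycolysis genes 1 higher and 1 lower of 22.

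Lists of other cell types gave few calls. The heart field, endothelium, epithelium, neural, neural crest, general mesenchyme and Hox lists had none, cardiomyocyte genes 1 lower of 4, branchiomeric muscle genes 1 higher of 4, and no blood gene was tested. That last higher gene was Msc, at 0.884 and 2.59 UPM, a ratio of 1.55 that was -0.26 with a Foxd1 minimum of 1. Emcn, an endothelial sialomucin, was at 5.72 and 10.4 UPM in members (0.86) but had a ratio of -1.77 in all other barcodes. The mix of cells in all other barcodes differed between these libraries. Endothelial barcodes numbered 317 in Ctrl and 69 in cKO, and those with over 2 Epcam UMIs 730 and 201. Summed endothelial genes in all other barcodes were at 232 and 66.5 UPM, and epithelial genes at 354 and 103. The part of this mix in the ratios of all other barcodes was not tested.

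Genes named because their ratio in members lay farthest from that of all other barcodes included Ptn, which encodes the growth factor pleiotrophin. It was at 528 and 272 UPM in members, a log2 ratio of -0.96 (-1.001 to -0.91), and at 0.40 in Foxd1-zero cells, a difference of -1.35 (-1.41 to -1.30). The neurofilament gene Nefl was at 29.5 and 15.2 UPM (-0.96 in members and 0.61 in Foxd1-zero cells), and the transcriptional cofactor Lmo1 at 14.9 and 5.45 (-1.45 and -0.55). These were lower in cKO members and not, or less so, in Foxd1-zero cells. Wfdc2, a secreted protease inhibitor, went the other way, from 21 to 184 UMIs (2.72, 2.07 to 3.45, with 1.81 in Foxd1-zero cells and -0.33 in all other barcodes), as did Spp1, which encodes osteopontin, at 0.520 and 3.41 UPM. Neurog2 was higher by 4.05 (2.44 to 6.37), but 27 of its 66 UMIs came from 1 of 14 cells. Emcn was also named in this way. The naming rests on all other barcodes, whose mix of cells differed by genotype, and the part of that mix was not tested.

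**Figure D3:**
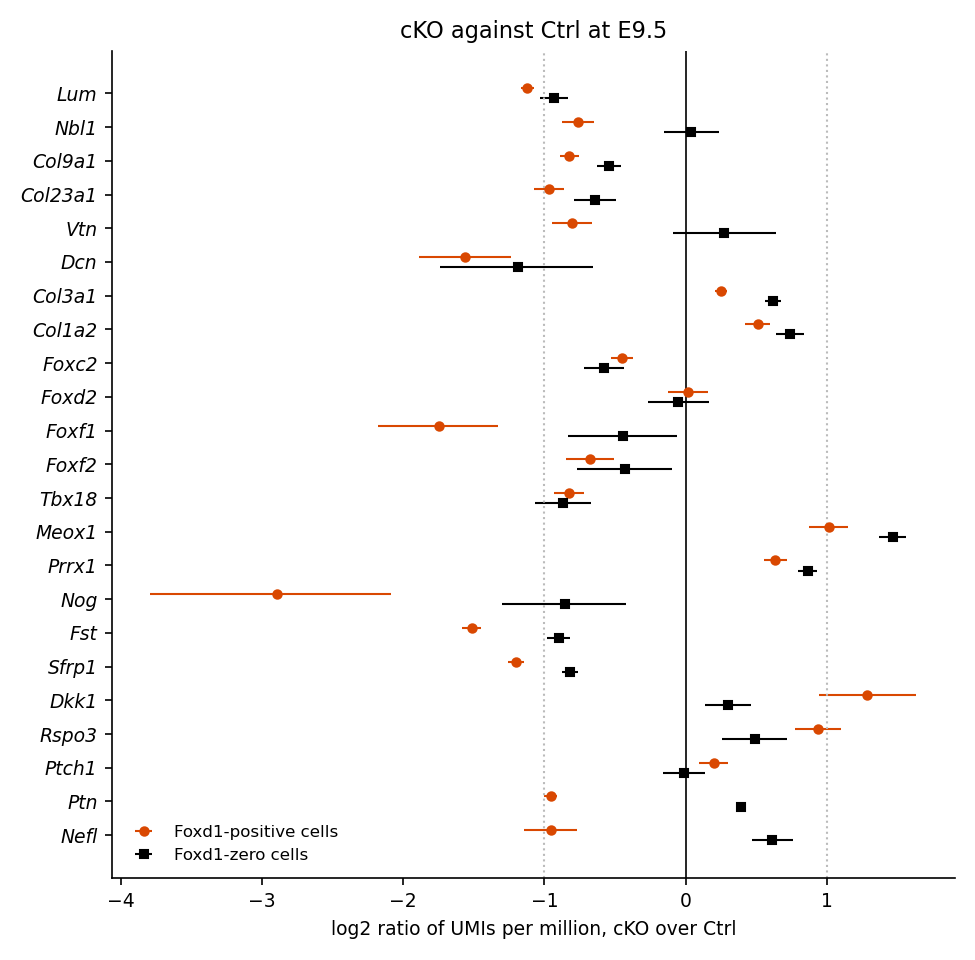
Log2 ratio of cKO to Ctrl at E9.5 (x axis) of 23 genes in Foxd1-positive mesenchyme and in Foxd1-zero cells, with 95% counting intervals as bars and dotted lines at 2-fold either way. Lum and Tbx18 are low in both sets of cells, whereas Ptn, Nbl1, Nog and Foxf1 lie further left in members.

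At E8.5 the marker genes were alike in level. Lum was at 278 UPM in Ctrl and 245 in cKO (-0.18, -0.34 to -0.02), Nbl1 at 32.8 and 32.1, Col9a1 at 39.1 and 45.7 and Col23a1 at 42.7 and 37.1, and the last 3 intervals included 0. In Foxd1-zero cells Lum was at -1.27, so that it differed by genotype in those cells and hardly in members. Over all genes, 123 of 6772 (1.82%) were called higher and 31 (0.458%) lower, 49 and 5 of them in the same direction in all other barcodes, with a median log2 ratio of 0.01. With 105 and 133 cells, genes under 50 UMIs over both groups were not compared.

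Fst was at 631 and 369 UPM (-0.77, -0.89 to -0.66), the same direction as at E9.5, and at -0.84 in all other barcodes. Col3a1 was at 43.8 and 82.8 UPM (0.92, 0.56 to 1.29), Foxc1 at 27.6 and 49.98 (0.86), Ptch1 at 43.3 and 66.9 (0.63) and Twist1, a mesenchymal bHLH factor, at 108 and 159 (0.55), while Foxc2 was level (0.06). None of these passed 2-fold, though Col3a1 and Ptch1 did after thinning (1.51 and 1.23). Called higher were the endothelial receptor Kdr at 25.0 and 53.0 UPM, the collagen gene Col5a1 at 6.26 and 15.9 and Fgfr1, an FGF receptor, at 29.7 and 59.6. The Kdr call rested in part on 1 cell with 30 of 160 UMIs. It did not hold without the clauses (0.32), as a mean over cells (0.87) or with the filter on depth and mitochondrial share (0.90). The Col5a1 call was lost with a Foxd1 minimum of 1 (0.88) and without the clauses (0.81). The Fgfr1 ratio of 1.004 stood beside 0.89 in all other barcodes. Its call was lost with centring (0.99), thinning (0.86), a Foxd1 minimum of 1 (0.98), a mean over cells (0.94) and that filter (0.99).

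Fgf8 was called lower, at 24.5 and 11.3 UPM (-1.12, -1.80 to -0.46), but not without the clauses (-0.93) or with a Foxd1 minimum of 1 (-0.71). The heart genes Myl7 (-1.67), Myl4 (-1.78) and Tnni1 (-1.17) were called lower as well, Tnni1 not with a Foxd1 minimum of 1 (-0.27). The share of members with Myl7 was at or below that of the 21 and 12 thinned endothelial barcodes, which are too few to set a background. Whether its ratio reflects background or expression was not tested. Tnni1 was seen in 17.2 and 7.69% of thinned members, 24.8 and 29.4% of Foxd1-zero cells and none of these endothelial barcodes. Dqx1 was at 15.6 and 190 UPM, but 94.2% of its 573 cKO UMIs came from 10 cells, and of the long noncoding RNA Lockd 87.4% came from 10 cells.

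Of the lists at E8.5, calls were made for 1 of 2 branchiomeric muscle genes (higher), 2 of 3 cardiomyocyte genes (lower), 1 of 2 endothelial genes (higher), 1 of 8 fibrillar collagens (higher) and 2 of 7 FGF genes (1 each way). No call was made for 27 head mesenchyme transcription factors, 21 matrix genes, 5 hedgehog genes (median 0.57, 0.40 in all other barcodes), 9 BMP genes, 12 WNT genes, 8 retinoic acid genes, 18 genes of PDGF, endothelin, semaphorin and chemokine signals, 18 S phase genes, 20 G2 and M phase genes or 21 glycolysis genes. Epithelial, neural, blood and Hox lists had no gene with enough UMIs.

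Between E8.5 and E9.5 the genes called higher at the later stage included fibrillar collagens and head mesenchyme transcription factors, and those called lower included FGF targets and early endothelial genes. In Ctrl members 1194 of 10186 genes (11.7%) were called higher and 292 (2.87%) lower at E9.5, and in cKO members 817 of 10537 (7.75%) and 466 (4.42%). Of these, 497 of the 1194 and 119 of the 292 in Ctrl, and 427 of the 817 and 244 of the 466 in cKO, were called the same way in all other barcodes. The median log2 ratio was 0.30 in Ctrl and 0.04 in cKO. With TMM scaling the Ctrl split was 740 higher and 448 lower, and with centring 574 and 561. Stage, dissected tissue and library cannot be told apart here, and each stage comparison shares its libraries with the genotype comparisons.

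Of the markers, Col9a1 was higher at E9.5 in both genotypes, by 2.52 (2.19 to 2.87) in Ctrl and 1.47 (1.23 to 1.73) in cKO on the log2 scale. Lum had 0.98 (0.86 to 1.11) in Ctrl and 0.04 (-0.07 to 0.16) in cKO, Nbl1 had 1.19 and 0.46, and Col23a1 had 1.14 and 0.38. The calls in Ctrl were 3 of 4 and in cKO 1 of 4, and the calls for Nbl1 and Col23a1 in Ctrl did not hold with centring (0.89 and 0.84).

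Fibrillar collagens stood higher at E9.5 in both genotypes. Col3a1 had log2 ratios of 3.21 (2.90 to 3.54) in Ctrl and 2.54 (2.36 to 2.73) in cKO, Col1a2 of 2.68 and 2.71, and Col1a1 of 1.92 and 1.83. Of 13 in the list, 6 were called higher in Ctrl and 4 in cKO, and none lower. The list medians were 1.09 and 0.59 in members and 1.21 and 0.70 in all other barcodes. Vtn was at 1.56 and 0.662 UPM at E8.5 and at 50.5 and 28.9 at E9.5. Fbln2, which encodes the elastic-fibre protein fibulin 2, was at 0 UPM in Ctrl E8.5 and 15.5 in Ctrl E9.5, and at 0.331 and 12.4 in cKO. Matrix proteins gave 7 higher and 1 lower of 25 in Ctrl (median 0.79) and 6 and 4 of 26 in cKO (median 0.12), and basement membrane and transmembrane collagens 2 higher of 10 and 1 higher. The filament gene Vim was at 41.2, 34.8, 287 and 235 UPM and Gap43 at 14.6, 13.2, 118 and 103, both alike in the genotypes.

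Among transcription factors, Nr2f1, a nuclear receptor of head mesenchyme and nervous system, was at 11.5, 14.2, 102 and 155 UPM in the 4 libraries, log2 ratios of 3.15 in Ctrl and 3.45 in cKO. Tbx18 had 2.51 (2.001 to 3.07) in Ctrl and 1.27 (0.91 to 1.66) in cKO, Foxf2 had 2.43 (1.62 to 3.39) and 0.95 (0.45 to 1.51), and Foxf1 3.06 (1.18 to 6.12) and 0.97 (-0.46 to 2.89). Foxl1 (1.44 and 1.08), Zic1 (1.80 and 2.15) and Pax9 (1.71 and 1.57) were called higher at E9.5 as well, but the Foxl1 call in cKO was lost with thinning (0.26), another Foxd1 minimum (0.89 and 0.94) and a mean over cells (0.92), and both Foxl1 calls without the clauses (0.97 and 0.21). The point values for Tbx18, Foxf1 and Foxf2 were smaller in cKO, which was not tested. Head mesenchyme transcription factors gave 9 higher and none lower of 40 in Ctrl and 10 and 3 of 44 in cKO, Irx5 among the lower in cKO (-1.48). Meox1 was at 15.1, 11.3, 30.8 and 62.2 UPM, with ratios of 1.03 and 2.47 that were -0.59 and -0.40 when Tcf15-positive and other excluded cells were kept.

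Of the secreted WNT modulators, Rspo3 was called higher at E9.5 in both genotypes and Sfrp1 in Ctrl alone. Rspo3 was at 1.04, 1.32, 22.1 and 42.4 UPM (4.41, 2.54 to 7.46, in Ctrl and 5.0001, 3.64 to 6.88, in cKO), and Sfrp1 had 1.94 in Ctrl and 0.84 in cKO. The WNT list gave 7 higher and 1 lower of 19 in Ctrl, with a median of 0.75, and 3 and 1 in cKO, with a median near 0. The BMP list gave 4 higher and 1 lower of 18 in Ctrl and 1 and 2 of 16 in cKO, Fst being lower in both, with ratios of -1.10 and -1.84. Retinoic acid genes gave 1 higher of 13 in Ctrl and 2 higher in cKO, hedgehog genes 2 higher and 1 lower of 10 in Ctrl and 2 lower in cKO, and PDGF, endothelin, semaphorin and chemokine genes 11 higher and 3 lower of 25 and 8 and 4 of 26.

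FGF targets were lower at E9.5 in both genotypes. Fgf8 was at 24.5, 11.3, 2.13 and 1.14 UPM (-3.52 in Ctrl and -3.31 in cKO), Etv5 had ratios of -2.07 and -1.86, and Spry2 of -2.31 and -1.06. The FGF list gave 1 higher and 5 lower of 11 in Ctrl and 1 and 6 of 12 in cKO. In all other barcodes of Ctrl, Fgf8 stood at 0.49 and Etv5 at 0.30, so the lower level of these genes was not shared there. Summed over the FGF list, members went from 231 to 154 UPM in Ctrl and from 246 to 151 in cKO. All other barcodes went from 301 to 356 and from 348 to 263. Foxd1-zero cells went from 335 to 291 and from 393 to 236, and somitic cells from 276 to 162 and from 277 to 178. Crym cells were lower too, and the Foxf2 and Foxl1 set in Ctrl was higher (202 to 256). A lower list sum was thus not particular to members.

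Early endothelial and muscle genes were lower as well. Etv2, the early endothelial ETS factor, was at 39.1, 54.6, 2.18 and 3.18 UPM, Kdr at 25.0, 53.0, 2.44 and 2.47, and Lmo2, a partner of blood and vessel factors, had ratios of -3.22 and -2.62. The branchiomeric gene Tcf21 (-2.90 and -1.97) went with them, though its cKO call was lost without the clauses (-0.80). Summed endothelial genes were also lower at E9.5 in Foxd1-zero cells, from 267 to 118 UPM in Ctrl and from 370 to 56.7 in cKO. Somitic cells went from 170 to 7.10 and from 85.4 to 10.2, and Crym cells from 398 to 63.0 and from 381 to 38.1. The sum was higher at E9.5 in all other Ctrl barcodes (186 to 232) and in the Foxf2 and Foxl1 set of both genotypes. The endothelium list gave 3 lower of 4 in Ctrl and 1 higher and 2 lower of 3 in cKO, branchiomeric muscle 2 lower of 3 and 1 higher and 2 lower of 4, heart field 3 lower of 4 and 1 each way of 2, and cardiomyocyte 1 lower of 4 in both.

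Genes of glycolysis and the response to low oxygen were lower at E9.5, 8 of 22 in Ctrl and 10 in cKO, against 1 and 2 higher. Ndufa4l2, a mitochondrial protein induced by low oxygen, was at 142, 134, 8.89 and 13.5 UPM, and Hk2, a hexokinase, at 141, 230, 32.5 and 34.6. The medians of the list were -0.68 and -0.85, beside -0.21 and -0.62 in all other barcodes. S phase genes gave 5 higher of 18 in Ctrl and none in cKO, and G2 and M phase genes 1 higher of 20 and none. General mesenchyme genes gave 4 higher of 8 in both genotypes, somite genes 2 higher of 3 in Ctrl and 3 higher and 1 lower of 5 in cKO, Hox genes 1 higher of 3 and 3 higher, neural genes none of 2 and 2 of 2 higher, neural crest genes none of 2 and 1 lower, and epithelial genes no call.

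**Figure D4:**
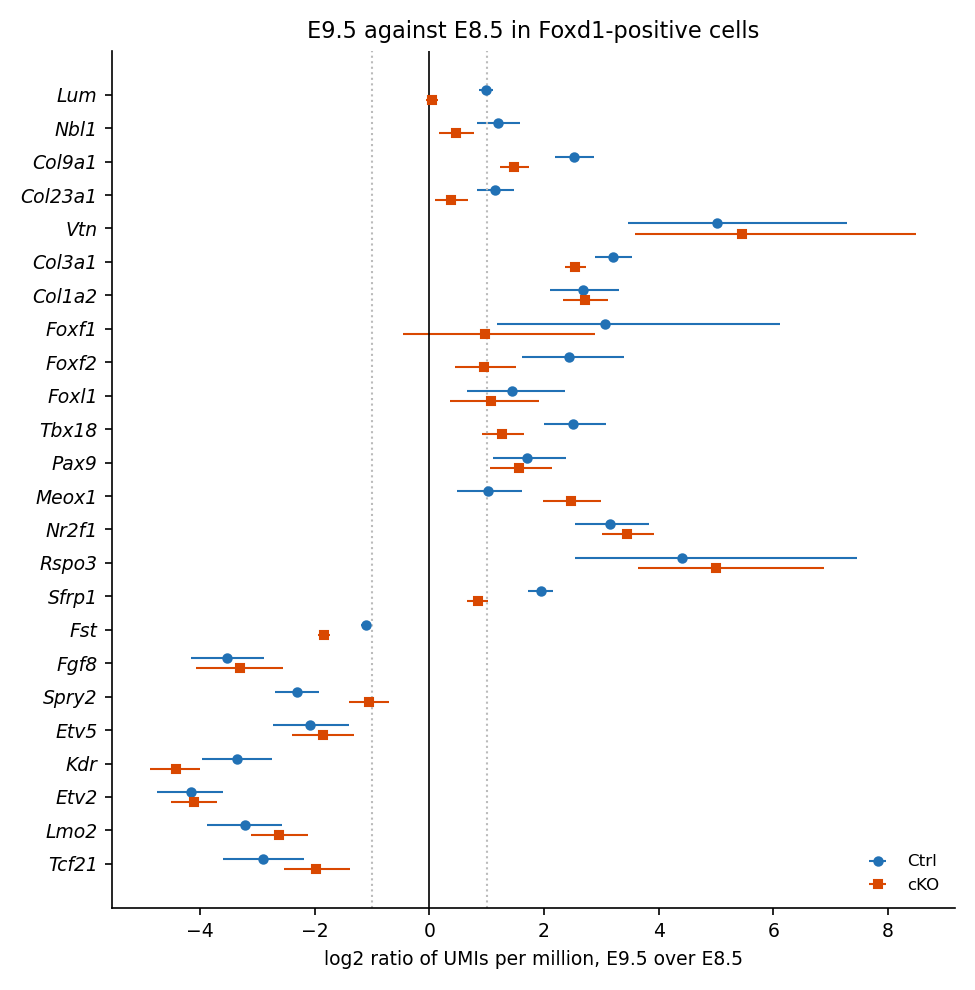
Log2 ratio of E9.5 to E8.5 (x axis) of 24 genes in Foxd1-positive mesenchyme, separately for Ctrl and cKO, with 95% counting intervals as bars. Matrix genes such as Col3a1 lie to the right and Fgf8, Etv2 and Kdr to the left in both genotypes, and Lum is at 0.98 in Ctrl and 0.04 in cKO.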

How the data were processed

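Single-cell RNA-seq was measured in 4 libraries, 1 per group. Raw counts of UMIs, as whole numbers for each gene and barcode, were deposited by the authors after barcodes taken for cells had been kept. The submitters' processing notes name Cell Ranger 3.1.0 and the mm10 (GRCm38) genome. The headers of both E8.5 matrices name another Cell Ranger version. The gene table of cKO E9.5 differed from that of the other libraries, and levels were taken over the 27514 identifiers shared by all. All 14243 deposited barcodes were kept, with no filter on depth and no doublet caller. The members of the mesenchyme and the gene lists were chosen with earlier results of these data known.

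Counts were summed over the cells of a group and divided by their summed UMIs (UPM), with Python 3.11.15, numpy 2.4.6, scipy 1.17.1, pandas 2.3.3 and matplotlib 3.10.9. Ratios of sums have exact conditional binomial 95% intervals, shares have Wilson intervals, and differences of shares have Newcombe intervals. Molecules from 1 cell are not independent, so that all intervals cover counting error only. Differences between the log2 ratios of 2 sets of cells carry intervals combined from both. Thinning drew 10000 UMIs per cell at random. Genes needed at least 50 UMIs over both groups. The script was tested on simulated data.

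Named genes were the 12 highest and 12 lowest of a comparison by the interval bound nearest 0, for genotype also by the difference from all other barcodes, and the members of 25 gene lists, as far as they are described. Left out of the naming, though not of the counts, were sex-linked, haemoglobin, mitochondrial, ribosomal protein and predicted genes and the genes of the rule. The 15 genes of highest Fano factor were named with a mean of at least 0.1 UMI. Of the genes named by rank, those printed were picked after their values were seen, the others are counted but not described, and some results are not reported here. Alternatives were another Foxd1 minimum, no exclusion clauses, thinning, a filter on depth and mitochondrial share, TMM factors (edgeR 4.0.16 in R 4.3.3), centring, a mean over cells, other minimum counts and other reference cells.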

Additional observations from a re-analysis of the deposited data

Results flagged for a closer look

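Of the 6766 genes compared by genotype at both stages, 11 were called in opposite directions and 10 in the same direction. Sex-linked genes, predicted genes, a ribosomal protein pseudogene and results not reported here were left out of those described. Tmem245 had a log2 ratio of cKO to Ctrl of -1.37 at E9.5 and 1.60 at E8.5 in members, and of -1.55 and 1.88 in all other barcodes. Med16, a subunit of the Mediator complex, had -1.01 and 1.05, and -0.78 and 0.68 in all other barcodes. Ppp2cb, a catalytic subunit of protein phosphatase 2A, had -1.94 and 1.08, and -2.10 and 0.98 in all other barcodes. The difference between the stages was not tested, since each group is 1 library, and for these 3 genes the other barcodes had the same direction as the mesenchyme.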

How the results depend on the processing

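No paired analysis was possible because each group was 1 library, and for the same reason no library could be left out. The share of members in cKO minus Ctrl at E8.5 was 1.59 points with a Foxd1 minimum of 1, 15.5 without the clauses and 12.4 among barcodes that met the other clauses, and at E9.5 it was 4.31 without the clauses and 0.459 among those barcodes. For cKO against Ctrl at E9.5, the 269 genes higher became 110 with the ratio of Foxd1-zero cells subtracted, 79 with genes also called in all other barcodes left out, 131 with a minimum of 200 UMIs and 416 with no minimum. The 405 lower became 215 with TMM, 204 with centring, 56 with the ratio of all other barcodes subtracted, 60 with that of Foxd1-zero cells, 190 with shared genes left out, 241 at 200 UMIs and 640 with no minimum. At E8.5 the 123 higher became 59 with thinning, 34 and 53 with the ratios of other barcodes and of Foxd1-zero cells subtracted, 74 with shared genes left out, and 226, 31 and 252 with minimums of 20, 200 and 1 UMI, and the 31 lower became 20 with thinning and 91, 4 and 141 with those minimums. For stage in Ctrl the 1194 higher became 740 with TMM, 574 with centring and 118 with other barcodes subtracted, and the 292 lower 176 with thinning, 448 with TMM, 561 with centring, and 123 and 512 at minimums of 200 and 1 UMI. For stage in cKO the 817 higher became 489 with thinning, 153 with other barcodes subtracted and 456 at 200 UMIs, and the 466 lower 127 with other barcodes subtracted, and 224 and 734 at minimums of 200 and 1 UMI. Stricter minimums leave fewer genes to compare, and thinning fewer UMIs. The cause of the other shifts was not tested.

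Of 1784 values of 195 named results under alternatives, 1712 kept their sign and 72 did not. Measured against the interval of the main value, 1300 lay within it and 463 outside it, and 21 values of called genes changed sign. With the ratio of all other barcodes subtracted, these were 41, 93 and 8. At E9.5 between genotypes, called genes that changed sign with the ratio of all other barcodes subtracted were Col9a2 (0.21), Meox1 (-0.74) and Cyp26c1 (0.34), and with that of Foxd1-zero cells Col9a2 (0.12), Meox1 (-0.45), Chrdl1 (0.45), Notum (0.034), Cyp26c1 (0.26), Aldh1a3 (-0.42) and Fbxl7 (-0.10). Msc was at -0.26 with a Foxd1 minimum of 1 and Osr1 at 0.026 without the clauses. Between stages with other barcodes subtracted, Pax9 (-0.34) and Fst (0.80) changed sign in Ctrl and Vtn (-0.24), Col3a1 (-0.83) and Zic1 (-1.11) in cKO, and without the clauses Meox1 did so in Ctrl (-0.59) and cKO (-0.40). Foxf1 against Foxd1-zero cells in Ctrl E9.5 was -0.069 without the clauses and -0.33 against all other barcodes. Subtraction of the ratio of Foxd1-zero cells and the removal of genes called in other barcodes were chosen after seeing the data.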
